A study of Mus musculus with 6 samples.

Results

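The aminoacyl-tRNA synthetases of the left ventricle were followed in 3 arrays from MURC knockout mice and 3 from wild-type mice. MURC, a muscle protein of caveolae now named cavin-4, is encoded by Cavin4. All mice were males on a C57BL/6 background, and the tissue was the left ventricle. The knockout arrays came from mice of 11, 11 and 13 weeks and the wild-type arrays from mice of 13, 13 and 12 weeks. The labels number the samples but do not say whether each came from its own animal. Ages differ within each genotype, but samples of the same age may share an animal. The spread behind every p-value is that of these samples and may be partly technical.

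The set named 39 genes, 19 for mitochondrial enzymes and 20 for cytosolic ones, out of 19938 genes that the platform annotation gives a probe set of their own. Members were taken by name, except that Gatc was chosen by its low signal in the knockout arrays against the wild-type arrays, and a gene's brightest probe set stood for it. A probe set with the gene's symbol alone was found for 37 of them, 19 mitochondrial and 18 cytosolic, and all 37 passed the filter on dim probe sets. Aars shares its only listed probe set with Exosc6, and Dars has no listed probe set here. The Cavin4 signal itself was 5.38, 5.74 and 5.59 in the knockout against 8.75, 8.62 and 8.07 in the wild type, so each array followed its genotype label.

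Aminoacyl-tRNA synthetases join each amino acid to its transfer RNA, the step at which the genetic code is read. Cells hold a cytosolic set and a separate mitochondrial set, all encoded in the nucleus, and the mitochondrial set serves the synthesis of the few respiratory chain subunits encoded by mitochondrial DNA. Heart muscle depends on that respiratory chain, and inherited defects of several mitochondrial synthetases cause cardiomyopathy. Mitochondria make glutaminyl-tRNA indirectly: the glutamyl-tRNA synthetase Ears2 first loads glutamate, and an amidotransferase of the subunits Qrsl1, Gatb and Gatc converts it to glutamine.

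Gatc, the small subunit of that amidotransferase, had the most negative change among the 37 genes. Its log2 signal was 8.13, 8.31 and 7.94 in the knockout against 8.79, 8.79 and 8.70 in the wild type. Every knockout array lay below every wild-type array. The means were 8.13 ± 0.19 and 8.76 ± 0.05 (SD, n = 3), a log2 change of -0.63 or 1.55-fold lower. Because Gatc was picked for this difference, the values are a description and carry no test. Over all alternative settings the change lay between -0.73 and -0.54, and the smallest size came without knockout replicate 3. In bulk tissue, fewer cells of a type and less RNA per cell cannot be told apart, here and in every result that follows.

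The changes of the other amidotransferase subunits were close to 0. Gatb measured 7.60, 7.66 and 7.56 in the knockout against 7.62, 7.69 and 7.63 in the wild type. Qrsl1, the catalytic subunit, measured 6.61, 6.59 and 6.66 in the knockout against 6.67, 6.57 and 6.52 in the wild type. The genotypes overlapped for both genes. The log2 changes were -0.04 (SE 0.06) for Gatb and 0.03 (SE 0.07) for Qrsl1, with limma adjusted p of 0.832 and 0.886. After quantile normalization the Gatb change was 0.01, and that of Qrsl1 was 0.07. Ears2, which loads the glutamate, measured 5.47 ± 0.12 against 5.45 ± 0.04 (SD, n = 3).

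The start of Gatc lies head to head with that of Triap1, a gene for a small p53-regulated protein that works in mitochondrial lipid transport. The 69 bases between both starts are shown because both genes start from them. They are given on the Gatc strand, 5′ to 3′, from RefSeq on GRCm38.p6 at chr5:115341162-115341230, minus strand.
Gatc: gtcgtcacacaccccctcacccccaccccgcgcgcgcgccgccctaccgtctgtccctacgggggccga
Triap1 measured 6.03, 6.20 and 6.11 in the knockout against 6.34, 5.96 and 6.16 in the wild type. The genotypes overlapped, and the log2 change was -0.04 (SE 0.11, limma adjusted p = 0.913).

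At its other end Gatc overlaps the splicing factor gene Srsf9 in RefSeq. Srsf9 measured 6.82, 6.75 and 6.65 in the knockout against 6.62, 6.54 and 6.55 in the wild type, so its knockout arrays lay above the wild type, opposite to Gatc. Its change was 0.17 (SE 0.08, limma adjusted p = 0.378). Cox6a1, a cytochrome oxidase subunit gene beyond Triap1, measured 9.23, 9.34 and 9.19 against 9.68, 9.46 and 9.43, a change of -0.27 (SE 0.08, adjusted p = 0.227) with no overlap. None of these 3 neighbours passed the threshold.

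**Figure D1:**
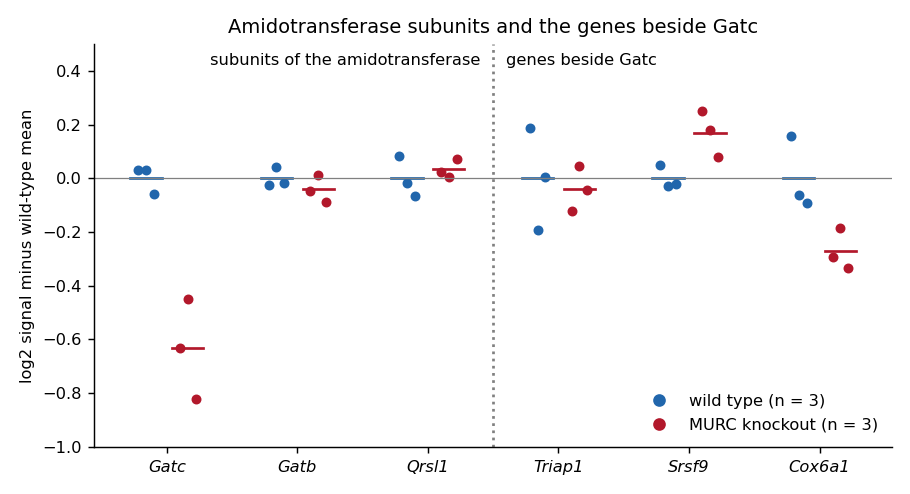
Log2 signal of each array minus the wild-type mean of that gene, for the 3 amidotransferase subunits and the 3 genes beside Gatc; points are arrays (3 per genotype) and short lines are group means. Gatc is at -0.63 in the knockout, while Gatb, Qrsl1 and Triap1 overlap between genotypes.

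Across the family, the changes were small and ran in both directions. Of the 36 measured members other than Gatc, 22 were below the wild type and 14 above it, with a median log2 change of -0.04. The median over all 15298 genes tested, with 1 probe set each, was also -0.04, and 9609 of these genes were below the wild type. Wild-type replicate 1 had the highest array median, at 4.71 against 4.6 to 4.65 on the others. Without it the median over all genes was -0.02. As deposited, 12 of 18 mitochondrial enzymes other than Gatc and 10 of 18 cytosolic ones were below the wild type. With quantile normalization 8 and 9 were, and with median centring 10 and 10. None of the 36 passed the adjusted threshold in limma. Of all 24898 probe sets tested 1 passed, or 0.00402%, and it was that of Cavin4, the gene knocked out (limma adjusted p = 0.012). With so few passing, that no synthetase, neighbour or related gene passed is not read as a result about them. At an unadjusted p under 0.05, 3 members were lower and 1 was higher, where 8.97% of all genes were lower and 2.5% higher. The genotypes did not overlap for 7 lower and 2 higher members, where 14.1% of all genes were lower without overlap and 4.64% higher. Counts of this size beside those shares are not read as a result about the synthetases. When only annotated probe sets were tested, 2.01% of them passed the adjusted threshold, and still none of the 36 did.

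**Figure D2:**
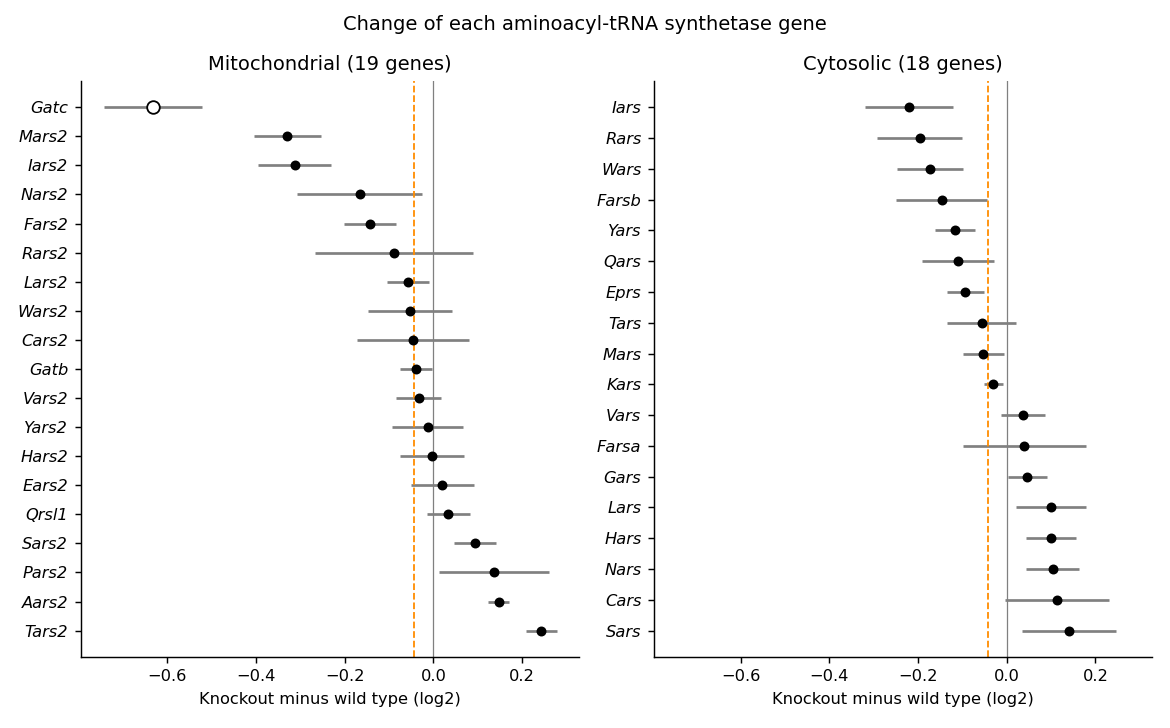
Log2 change (knockout minus wild type) of the 19 mitochondrial and 18 cytosolic genes with a probe set. Bars are the standard error of the difference from the SDs of 3 and 3 arrays. The SE in the text is instead the moderated one of limma. The dashed line is the median of all genes at -0.04, and the open circle is Gatc, which was picked for its value. Apart from Gatc, the values lie between -0.33 and 0.24.

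Among the mitochondrial synthetases, those for methionine, isoleucine and phenylalanine had lower signals with no overlap between genotypes. Mars2, which loads methionine and so serves initiation as well as elongation, measured 5.97, 5.87 and 5.73 in the knockout against 6.22, 6.13 and 6.21 in the wild type. Its change was -0.33 (SE 0.09) or 1.26-fold, with an unadjusted p of 0.00659 and a limma adjusted p of 0.181. Iars2, the isoleucine enzyme, measured 8.44, 8.56 and 8.38 against 8.65, 8.85 and 8.82. Its change was -0.31 (SE 0.08, limma adjusted p = 0.156). For both genes each of the 3 knockout arrays was below each wild-type array, so leaving out 1 array could not turn the direction. The direction held under all 16 alternatives. The limma adjusted p ran from 0.0941 to 0.443 for Mars2 and from 0.071 to 0.408 for Iars2.

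Fars2, the phenylalanine enzyme, showed a smaller difference. It measured 7.33, 7.24 and 7.23 in the knockout against 7.51, 7.35 and 7.37 in the wild type. The gap between the nearest arrays of the 2 genotypes was narrow, and the change was -0.14 (SE 0.07, limma adjusted p = 0.446), or -0.09 without wild-type replicate 1. Lyrm4, an iron-sulphur cluster assembly gene whose start lies head to head with that of Fars2, measured 0.05 higher with overlapping genotypes.

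In the other direction stood the threonine and alanine enzymes. Tars2, which loads threonine, measured 7.88, 7.85 and 7.80 in the knockout against 7.57, 7.58 and 7.65 in the wild type. Every knockout array was above every wild-type array, and the spread within each genotype was small. The change was 0.24 (SE 0.06) or 1.18-fold, with an unadjusted p of 0.00469 and a limma adjusted p of 0.155 that ranged from 0.101 to 0.346 over the alternatives. Aars2, the alanine enzyme, in which mutations cause an infantile cardiomyopathy, measured 5.75, 5.78 and 5.75 against 5.57, 5.64 and 5.63. Its change was 0.15 (SE 0.08, limma adjusted p = 0.451), again with no overlap.

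**Figure D3:**
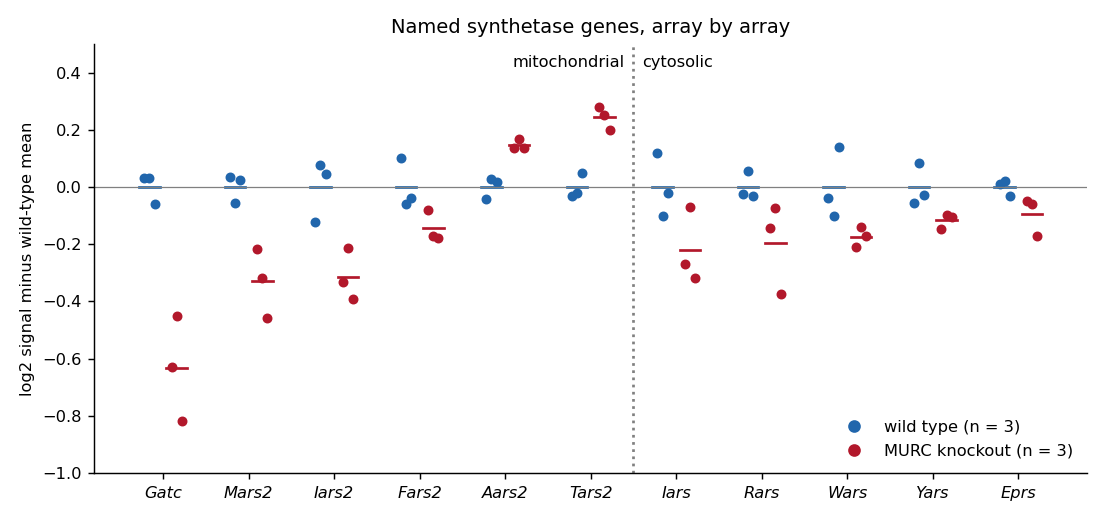
Log2 signal of each array minus the wild-type mean of that gene, for Gatc and the 10 other members that had an unadjusted p under 0.05 or did not overlap between genotypes; points are arrays (3 per genotype) and short lines are group means. Tars2 and Aars2 are above the wild type, at 0.24 and 0.15, and the other 9 genes are below it.

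The remaining mitochondrial synthetases overlapped between genotypes. Nars2, for asparagine, had the lowest mean change of these at -0.17 (SE 0.13). Knockout replicate 2 stood apart at 5.38, with the rest of the knockout at 5.79 and 5.78, inside the wild-type range of 5.74 to 5.86. Pars2, for proline, had the highest of these at 0.14 (SE 0.13), and it was the dimmest member, between 4.13 and 4.54 on all arrays. Rars2, for arginine, varied more among the wild-type arrays, at 6.76, 6.70 and 6.24, than between genotypes. Its head-to-head neighbour Orc3, a subunit of the origin recognition complex, measured -0.24 (SE 0.08, limma adjusted p = 0.25) with no overlap.

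Sars2, for serine, measured 0.09 (SE 0.08), and its head-to-head neighbour Mrps12, a mitochondrial ribosomal protein gene, also 0.09 (SE 0.08). Cars2, Lars2, Vars2, Wars2, Yars2 and Hars2, for cysteine, leucine, valine, tryptophan, tyrosine and histidine, had changes between -0.06 and -0.0033. Their limma adjusted p-values were between 0.788 and 0.992. The genotypes overlapped for all of these genes, and none passed the adjusted threshold.

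The cytosolic enzymes spanned a narrower range, from -0.22 to 0.14. Of the 18 measured, 10 were below the wild type and 8 above, with a median of -0.04. The isoleucine enzyme Iars had the most negative change. It was the 1 cytosolic member with an unadjusted p under 0.05 in limma, where 8.97% of all genes were lower at that threshold. Its brighter probe set measured 8.36, 8.56 and 8.31 in the knockout against 8.75, 8.53 and 8.61 in the wild type. Knockout replicate 2 lay above the lowest wild-type array, and the change was -0.22 (SE 0.09, unadjusted p = 0.0418, limma adjusted p = 0.344). The second Iars probe set disagreed in size, at 8.32, 8.41 and 8.22 against 8.28, 8.37 and 8.46, a change of -0.05 (SE 0.08, adjusted p = 0.816). With that probe set in place of the brighter one, or when any array but replicate 2 of either genotype was left out, 0 cytosolic members were lower at an unadjusted p under 0.05 in limma.

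The arginine, tryptophan, tyrosine and bifunctional glutamate and proline enzymes were lower without overlap, and all by small amounts. Rars, for arginine, measured 7.83, 7.90 and 7.60 in the knockout against 7.95, 8.03 and 7.94 in the wild type, a change of -0.20 (SE 0.09). Much of it came from knockout replicate 3, without which the change was -0.11. Wars, the tryptophan enzyme, which interferon also induces, measured 6.89, 6.96 and 6.93 against 7.06, 7 and 7.24, a change of -0.17 (SE 0.08). Wild-type replicate 3 was the highest of these arrays, and without it the change was -0.10.

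Yars, for tyrosine, measured 6.00, 6.05 and 6.04 against 6.09, 6.23 and 6.12, a change of -0.12 (SE 0.08), or -0.08 without wild-type replicate 2. Eprs, a fused enzyme that loads both glutamate and proline, measured 8.45, 8.44 and 8.33 against 8.51, 8.52 and 8.47, a change of -0.09 (SE 0.06). That change was -0.06 without knockout replicate 3 and -0.05 with quantile normalization. The limma adjusted p-values of Rars, Wars, Yars and Eprs were 0.386, 0.41, 0.57 and 0.565. None of these changes was distinguishable from the spread between arrays at the adjusted threshold.

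Gars and Kars, for glycine and lysine, each serve cytosol and mitochondria from 1 gene and have no separate mitochondrial member. Gars measured 8.27, 8.19 and 8.30 in the knockout against 8.26, 8.16 and 8.20 in the wild type. Kars measured 7.59, 7.55 and 7.62 against 7.62, 7.62 and 7.61. The changes were 0.05 (SE 0.06) and -0.03 (SE 0.06), and the genotypes overlapped for both. The subunits of the cytosolic phenylalanine enzyme, which work as a tetramer, were at 0.04 (SE 0.13) for Farsa and -0.15 (SE 0.10) for Farsb.

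Several cytosolic synthetases are held together in the multisynthetase complex, a large scaffold of enzymes and auxiliary proteins. Of its 7 enzymes measured, 6 were below the wild type (Eprs, Iars, Kars, Mars, Qars and Rars) and Lars was above it at 0.10, with a median of -0.09. Of the 11 enzymes outside the complex, 4 were below and 7 above, with a median of 0.04. Those above were Sars at 0.14, Cars at 0.11, Nars and Hars at 0.10, Gars at 0.05, and Farsa and Vars at 0.04. Of all 15298 genes tested, 9609 were below the wild type as deposited. The grouping by complex was made after the values were seen, so it has no test. In the complex 6 of 7 were lower in all alternatives except quantile normalization, where 5 were. The complex's median was -0.05 without knockout replicate 3, the array with the lowest level of these 7 enzymes, and -0.05 with quantile normalization. The median outside it ran from 0.02 without wild-type replicate 3 to 0.07 with quantile normalization or without wild-type replicate 1.

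The complex also holds auxiliary proteins without synthetase activity. Eef1e1, an auxiliary protein of the complex, measured 7.47, 7.54 and 7.46 in the knockout against 7.36, 7.16 and 7.18 in the wild type. Every knockout array was higher, with a change of 0.26 (SE 0.08, limma adjusted p = 0.218). The scaffold genes Aimp2 and Aimp1 measured 0.13 (SE 0.11) and -0.06 (SE 0.11) with overlap. Tarsl2, a second cytosolic threonine enzyme, measured 0.13 (SE 0.08), and Eef1a2, the elongation factor of muscle that carries loaded tRNA to the ribosome, 0.08 (SE 0.05). Of the 10 genes tested of 13 partners listed, 5 were lower and 5 higher, and none passed the adjusted threshold. At an unadjusted p under 0.05 there were 0 lower and 1 higher in limma, where 8.97% of all genes were lower and 2.5% higher.

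For 12 amino acids the family has 1 measured mitochondrial and 1 measured cytosolic enzyme, each encoded by a single gene. For threonine this leaves aside Tarsl2, which is no member and was at 0.13. Both enzymes were lower for 5 amino acids (arginine, isoleucine, methionine, tryptophan and tyrosine), both were higher for serine, and the signs were opposite for 6, all in the values as deposited. The mitochondrial change was the more negative for 8 of the 12. That count was 6 when knockout replicate 3 was left out, 7 when wild-type replicate 2 was, and 9 when wild-type replicate 3 was. The widest gaps were those of threonine, with 0.24 for Tars2 and -0.06 for Tars, methionine, with -0.33 for Mars2 and -0.05 for Mars, and asparagine, with -0.17 for Nars2 and 0.10 for Nars. The difference between compartments was not tested, because the members were chosen with these values known.

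**Figure D4:**
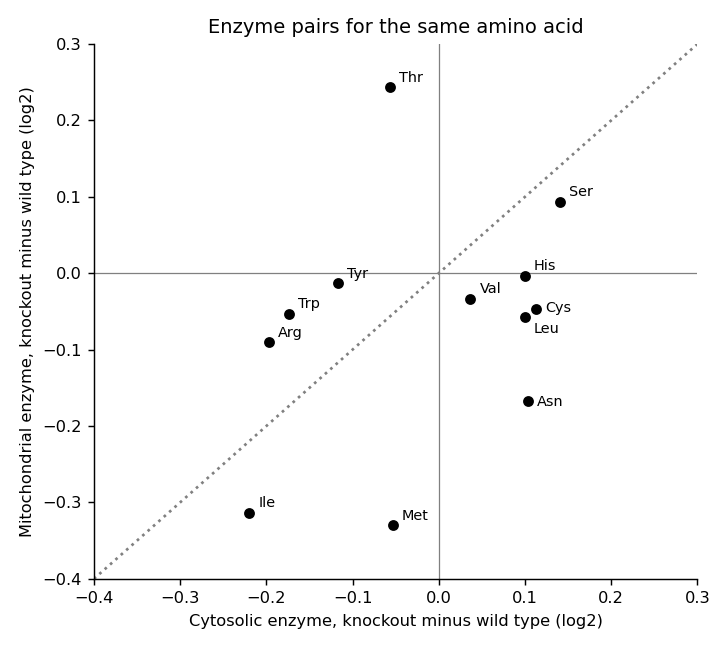
Log2 change (knockout minus wild type) of the mitochondrial enzyme against that of the cytosolic enzyme for the 12 amino acids with 1 measured member in each compartment, Tarsl2 not being a member; the dotted line marks equal change. Threonine lies above the line at 0.24 for Tars2, and methionine and isoleucine lie lowest, at -0.33 and -0.31.

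Promoter windows of 250 bases before to 50 after the start were found in RefSeq (GRCm38.p6) for 29 members, 16 mitochondrial and 13 cytosolic. They were searched on both strands for 4 motifs, and a member counted when any window of it held the motif. TGATGNAA is the composite site of ATF4 and C/EBP proteins through which amino acid shortage induces cytosolic synthetases. It was in 5 of 13 cytosolic members (Aars, Gars, Iars, Tars and Yars). It was in 0 of 16 mitochondrial ones and in 3.97% of all 32851 windows. CCGGAAG, the ETS site that GABP binds, was in 4 mitochondrial members (Cars2, Mars2, Rars2 and Sars2), in 5 cytosolic ones and in 8.86% of all windows. The E-box CACGTG was in 1 mitochondrial and 4 cytosolic members and in 7.15% of all windows, and the NRF1 consensus site was in none of the 29 and in 0.971% of all. No motif was required to be free of overlap with another. The shares are per window and the counts per member, and a member with several windows has more chances of a match. The shares are therefore no exact background for the counts, and a share per gene was not computed. The 0 of 16 for the ATF4 motif is not read as an absence particular to the mitochondrial members. A match is a description of the letters, not a bound site.

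The 100 bases before the start are shown for 3 members, to set the ETS site of Mars2, the tested member with the most negative change, beside the ATF4 sites of Tars and Gars. Capitals mark the ETS site in Mars2 (chr1:55237077-55237176, plus strand) and the ATF4 site, read on the opposite strand, in Tars (chr15:11399659-11399758, minus strand) and Gars (chr6:55037901-55038000, plus strand).
Mars2: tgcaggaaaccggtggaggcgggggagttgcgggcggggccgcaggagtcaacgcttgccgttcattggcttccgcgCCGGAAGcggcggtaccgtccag
Tars: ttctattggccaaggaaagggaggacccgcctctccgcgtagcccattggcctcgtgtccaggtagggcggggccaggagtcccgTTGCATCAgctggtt
Gars: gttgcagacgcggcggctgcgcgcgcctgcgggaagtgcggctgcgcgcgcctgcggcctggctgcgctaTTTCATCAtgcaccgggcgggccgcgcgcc
The 4 measured genes with an ATF4 motif had changes of both signs, at 0.05 for Gars, -0.06 for Tars, -0.12 for Yars and -0.22 for Iars. The members with the ETS motif ranged from -0.33 for Mars2 to 0.14 for Sars.

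The amino acid response itself, the ATF4 programme to which cytosolic synthetases belong, was read from 24 listed genes, of which 21 were tested. Of these, 14 were lower and 7 higher, with a median of -0.03, where 9609 of all 15298 genes were lower. None of the 21 passed the adjusted threshold. At an unadjusted p under 0.05 there were 2 lower and 2 higher in limma, beside 8.97% lower and 2.5% higher of all genes. Slc7a1, a transporter of cationic amino acids, measured 6.27, 6.64 and 6.43 in the knockout against 7.05, 7.05 and 6.83 in the wild type, a change of -0.53 (SE 0.11, limma adjusted p = 0.119). Sesn2, a leucine sensor upstream of mTORC1, measured 4.67, 4.77 and 4.65 against 5.09, 4.97 and 4.96, a change of -0.31 (SE 0.09). Ddit4, an mTORC1 inhibitor, measured 7.45, 7.68 and 7.96 against 6.85, 6.73 and 7.55, a change of 0.65 (SE 0.22) in which the genotypes overlapped. Ddit3, a stress-induced transcription factor gene, measured 6.42, 6.38 and 6.41 against 6.12, 6.30 and 6.16, a change of 0.21 (SE 0.08, limma adjusted p = 0.308) with no overlap. In RefSeq it overlaps Mars, which was at -0.05. Atf4 itself was at -0.03 and the asparagine synthetase gene Asns at 0.09, both overlapping between genotypes.

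Genes that process mitochondrial tRNAs showed a like mixture. Of 21 listed, 17 were tested, with 7 lower and 10 higher and a median of 0.03. None passed the adjusted threshold, and at an unadjusted p under 0.05 there were 1 lower and 1 higher in limma, beside the same 8.97% and 2.5% of all genes. Nsun3, which methylates the mitochondrial methionine tRNA that Mars2 loads, measured 6.30, 6.17 and 5.34 in the knockout against 6.63, 6.96 and 6.82 in the wild type. All knockout arrays were lower, and replicate 3 stood far below the other knockout arrays. The change was -0.87 (SE 0.24, limma adjusted p = 0.193). Trit1, a tRNA isopentenyltransferase, measured 0.30 (SE 0.13) and Hsd17b10, a subunit of mitochondrial RNase P, -0.18 (SE 0.09), both with overlap.

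Of the 22 listed genes for mitochondrial translation and transcription factors, 21 were tested, with 8 lower and 13 higher and a median of 0.02. At an unadjusted p under 0.05 there were 3 lower and 3 higher in limma, with 8.97% and 2.5% over all genes, and none passed the adjusted threshold. Tufm, the elongation factor that brings loaded tRNA to the mitochondrial ribosome, measured 8.82, 8.80 and 8.77 in the knockout against 8.54, 8.58 and 8.53 in the wild type, a change of 0.25 (SE 0.05, limma adjusted p = 0.12). Tfb2m, a mitochondrial transcription factor, measured 7.65, 7.67 and 7.45 against 7.83, 7.93 and 7.94, a change of -0.31 (SE 0.08). Slirp, which stabilises mitochondrial messenger RNA, measured 8.45, 8.31 and 8.48 against 8.22, 8.19 and 7.97, a change of 0.29 (SE 0.09). All 3 were without overlap, and they differed in direction.

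**Figure D5:**
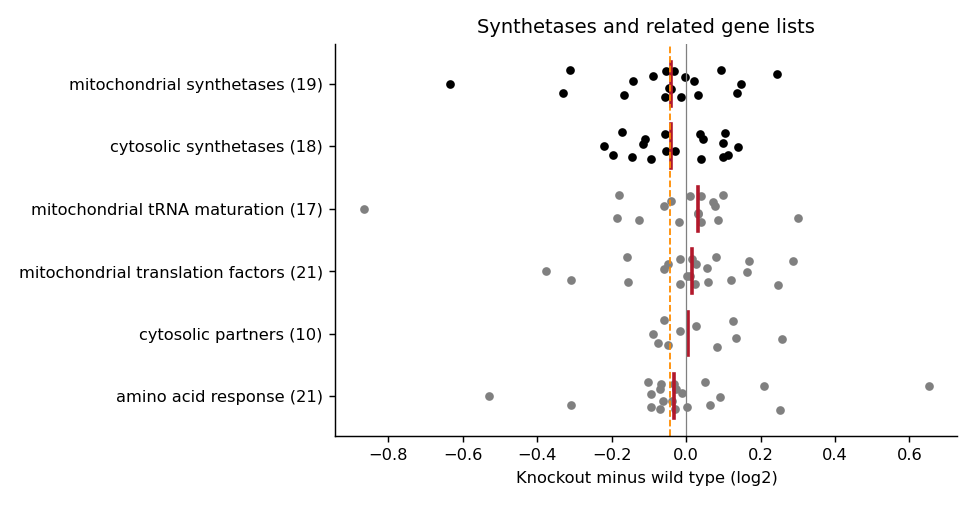
Log2 change (knockout minus wild type) of the 19 mitochondrial and 18 cytosolic synthetase genes and of the tested genes of the 4 related lists; each point is a gene, with its height within a row set only for legibility, red bars are medians and the dashed line is the median of all genes at -0.04. The 6 medians lie between -0.04 and 0.03.

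The defining cardiomyocyte markers were bright on every array, with mean log2 levels over 8 genes between 12.35 and 12.39, and their changes lay between -0.04 and 0.06. Knockout replicate 2 stood apart in the atrial genes: the mean over Myl7, Myl4 and Nppa was 9.11 on that array and between 6.65 and 6.91 on the others. Without that array the change was -0.73 for Gatc, -0.34 for Mars2, -0.36 for Iars2 and 0.24 for Tars2. Their direction could not turn, because their genotypes did not overlap. All 4 smooth muscle markers were higher in the knockout, with mean levels of 6.26 to 6.33 against 5.92 to 6.12. Of 7 macrophage and leukocyte markers 6 were lower, with mean levels of 6.12 to 6.33 against 6.28 to 6.61. Fibroblast and endothelial markers had median changes of -0.02 and 0.06. The part of these cell types in the synthetase values was not tested.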

How the data were processed

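The deposited values of 35556 probe sets ran from 0.46 to 13.72 and were taken as log2 expression from that range. MAS5 appears in the submitters' processing notes with no role attached, and how the probe sets were summarised and scaled is not given there.

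The values were fitted as deposited in R 4.3.3 with limma 3.58.1 (lmFit, eBayes with an intensity trend), two-sided, over the 24898 probe sets whose mean was at or above the 30th percentile, a log2 value of 3.45. Benjamini-Hochberg adjustment ran over all of these, with a threshold of 0.05. The SE given with a change in the text is the moderated one of limma, which draws on the variance of all probe sets tested. The brightest probe set stood for its gene. Members given array by array are Gatc, members with an unadjusted p under 0.05 and members whose genotypes did not overlap. Outside this rule, Gatb, Qrsl1, Gars and Kars were also given array by array, and Nars2 and Rars2 in part. From each related list, up to 3 genes with the smallest p are named, with Aimp1, Aimp2, Ddit3, Atf4 and Asns added after their values were seen, and the neighbours were taken by position. Members, lists and tests were chosen with earlier results of these data known, and the split by the multisynthetase complex was made after the values were seen. The alternatives were other scalings, filters, probe set choices, covariates and variance models, and leaving out each array. The number of arrays limits the precision.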

Additional observations from a re-analysis of the deposited data

How the results depend on the processing

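None of the 36 tested members passed the adjusted threshold in limma under any of the 16 alternatives, which does not show that they were unchanged. The 10 named beside Gatc kept their direction in all of them. For members named because their genotypes did not overlap, leaving out 1 array could not turn the direction. The filters, the replicate block and the intensity trend alter the test and leave the change as it was. The kept direction is therefore no support for these changes. At an unadjusted p under 0.05, 8.97% of all genes were lower and 2.5% higher in the main fit. These shares are not given for the other settings, and the counts that follow are not read as a result about the synthetases. The 2 mitochondrial members lower and 1 higher at that threshold were 2 and 1 in every setting but 1. Without wild-type replicate 3, 3 were lower, and Gatc makes the lower count of the main fit 3. The cytosolic count of lower members, 1, became 0 with quantile normalization, averaged probe sets per gene, no intensity trend, array weights or the dimmer Iars probe set, and 2 with annotated probe sets only or age as a covariate. Leaving out 1 array gave 0 to 2, with 2 when replicate 2 of either genotype was absent and 0 when any other array was. The cytosolic count of higher members was 0, and 1 with quantile normalization. Leaving out 1 array gave 0 to 1.

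The median change of the mitochondrial enzymes other than Gatc, -0.0367, was 0.0061 with quantile normalization and -0.0167 with median centring. That of the cytosolic enzymes, -0.0417, was 0.0001 after quantile normalization. The median of all genes moved from -0.0433 to -0.0136 and -0.0233 under these scalings. Leaving out 1 array gave -0.0425 to -0.0033 for the mitochondrial enzymes other than Gatc and -0.0567 to -0.0108 for the cytosolic enzymes. The median of the mitochondrial translation factors, 0.0167, was 0.0528 after quantile normalization. Leaving out 1 array gave -0.0217 to 0.0617 for mitochondrial tRNA maturation, -0.0183 to 0.045 for the translation factors, and -0.08 to -0.0117 for the amino acid response, each lowest in the absence of wild-type replicate 2. The causes were not tested.

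Over all probe sets, 1 passed the adjusted threshold as deposited, 130 after quantile normalization, 105 after median centring, 126 with array weights, 361 with annotated probe sets only, 34 with age as a covariate, 48 with the filter at the 50th percentile, which leaves out 1 mitochondrial member, and 0 to 12 with 1 array left out.

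Deviations from the group means in same-numbered arrays of the 2 genotypes had correlations of -0.06, 0.02 and -0.06. For the other pairs of arrays the correlations ran from -0.01 to 0.07. No shared deviation by number was seen, which cannot exclude that the samples were paired in some way. With the replicate number as a block, 0 of the 36 members passed, medians were -0.04 in both classes, and of all probe sets 0 passed in place of 1.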
